A study of Mus musculus with 16 samples.

Results

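The RNA levels of 9 chemokine receptors, Ccr1, Ccr2, Ccr7, Cxcr2, Cxcr4, Cx3cr1 and the atypical receptors Ackr1, Ackr2 and Ackr3, were followed in RNA-seq libraries of mouse lung endothelial cells (ECs) during acute lung injury. These receptors were picked by gene name from the 54532 genes of each expression table, and all of them were found. Cells labelled EC had been selected from digested lung with magnetic beads, by removal of CD45+ cells and capture of CD31+ cells, 24 h after an intratracheal dose. In the first experiment male WT C57/BL6J mice of 8 weeks received saline (4 libraries) or 10 mg/kg LPS, the bacterial endotoxin lipopolysaccharide (6 libraries). In the second, all mice received tamoxifen and then 2 mg/kg LPS. Fgfr1 loxP/loxP mice (3 libraries) served as controls for Fgfr1 iΔEC/iΔEC mice (3 libraries), which also carried VE-cadherin-CreERT2, a tamoxifen-inducible Cre recombinase driven by an endothelial promoter that removes the fibroblast growth factor receptor Fgfr1. The second experiment had no saline arm, so it compares genotypes within injured lungs only, and the promoter limits the deletion to cells that have used it. Counted reads per library were 13478726 to 18807007 in saline, 17840221 to 19043015 in LPS, 15969575 to 17002788 in Fgfr1 loxP/loxP and 16642177 to 16943522 in Fgfr1 iΔEC/iΔEC.

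Chemokine receptors are membrane proteins that couple to inhibitory G proteins and steer leukocytes along gradients of small secreted chemokines. Atypical receptors bind chemokines without that coupling, and instead carry them across the endothelium, hold them at the cell surface or degrade them. In inflamed lung the conventional receptors are best known on neutrophils, monocytes and lymphocytes, whereas Ackr1 is known from venules, Ackr2 mainly from lymphatic vessels and Ackr3 from blood endothelium.

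A stretch in which atypical receptors are known to depart from conventional ones lies at the inner end of the third membrane helix, where conventional receptors carry a conserved motif that begins with aspartate, arginine and tyrosine. It is shown to let the members be compared there. Each line gives the 21 coding bases of that stretch in the GENCODE M21 transcript with the longest reading frame, 5′ to 3′, aligned to Cxcr4, with capitals for each codon that encodes the same residue as in Cxcr4 and lower case for the others.
Ccr1: GACAGATACCTGGCCATTGTC
Ccr2: GATAGGTACTTGGCTATTGTT
Ccr7: GACCGCTACgtaGCCATCGTC
Cxcr2: GACCGCTACCTGGCCATTGTA
Cxcr4: GACCGGTACCTCGCTATTGTC
Cx3cr1: GACCGGTACCTTGCCATCGTC
Ackr2: GACaaaTACCTGgagATTGTC
Ackr3: GACCGCTATCTCtccATCacc
These stretches lie at chr9:123964084-123964104 (Ccr1), chr9:124106132-124106152 (Ccr2), chr11:99145618-99145638 (Ccr7), chr1:74158772-74158792 (Cxcr2), chr1:128589500-128589520 (Cxcr4), chr9:120051936-120051956 (Cx3cr1), chr9:121908978-121908998 (Ackr2) and chr1:90214241-90214261 (Ackr3), all in coding exons of GRCm38. Ccr2, Cxcr2, Ackr2 and Ackr3 are on the plus strand, and Ccr1, Ccr7, Cxcr4 and Cx3cr1 are on the minus strand. Ccr1, Ccr2, Cxcr2, Cxcr4 and Cx3cr1 encode the same 7 residues, Ccr7 differs at 1 of them, and Ackr2 and Ackr3 each keep 5 of the 7. The second residue, the arginine, is replaced in Ackr2, whereas Ackr3 keeps the first 3 residues of the motif and differs further along. The first 3 residues alone therefore do not part atypical from conventional members. Residue 5 of the 7 differs from Cxcr4 in Ackr2 and Ackr3 and in none of the conventional members. Ackr1 had no stretch that aligned without a gap.

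At the gene level the members lie on chromosomes 1, 9 and 11. By GENCODE M21, Cxcr2 spans positions 74153989 to 74161246 of chromosome 1, Ackr3 90203980 to 90216751, Cxcr4 128588199 to 128592293 and Ackr1 173331886 to 173333750. Cx3cr1 spans 119901616 to 120069879 of chromosome 9, Ackr2 121898355 to 121911074, Ccr1 123962124 to 123968692 and Ccr2 124101950 to 124113557. Ccr7 spans 99144196 to 99155077 of chromosome 11. All 9 are protein-coding. Ackr1 overlaps Cadm3 on the same strand and the long annotated span of Cx3cr1 overlaps 9 other genes, so reads in shared stretches cannot be assigned with certainty to these 2 members, whereas the other 7 overlap no annotated gene. Ccr1 has a close paralog nearby (Ccr1l1), between which reads could have been split.

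Values are given as FPKM, fragments per kilobase of gene length scaled to a library size that the authors' tables carry, which allows levels to be compared between genes. Errors of FPKM are SDs over libraries and errors of log2 fold changes are SEs. A gene was called changed when limma's adjusted p over all tested genes was at most 0.05 and the absolute log2 fold change of FPKM + 1 was at least 1, with the 14893 genes that averaged at least 0.5 FPKM tested for LPS and 14945 for the genotype. All 9 receptors passed that filter in both experiments. For the first experiment the authors give n as 4 or 6 per group, without naming the unit. No source states outright that libraries of a group came from separate animals, so the p-values measure the spread between these libraries, which may be partly technical.

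Endothelial markers were abundant in both groups, as the label EC has it, but several were lower in LPS. Pecam1, which encodes CD31, was at 400 ± 81.5 FPKM (SD, n = 4) in saline and 358 ± 76.8 (n = 6) in LPS, a log2 fold change of -0.17 ± 0.21 (SE) with a limma adjusted p of 0.516. Of the 10 endothelial markers 3 were called lower, the receptor genes Kdr (-1.63 ± 0.28), Tek (-1.20 ± 0.22) and Tie1 (-1.07 ± 0.21), and none higher. Together with Cdh5 (-0.88 ± 0.22) and Erg (-0.77 ± 0.21), these lay lower in every LPS library than in every saline library, and the list median was -0.63. The list summed to 5480, 3350, 4190 and 3470 FPKM in saline and to 1480, 3540, 2220, 3500, 2680 and 3230 in LPS, led by Cldn5. Leukocyte RNA was also present. Ptprc, which encodes the CD45 that the beads were meant to remove, rose from 6.97 ± 3.13 to 34.6 ± 11.4 FPKM (log2 fold change 2.19 ± 0.28, limma adjusted p = 0.000112), and every LPS library exceeded every saline library. All 6 of the 6 leukocyte markers rose, with a median log2 fold change of 2.83 against 0.01 over all genes tested. Their summed FPKM was 227, 156, 76.5 and 138 in saline libraries 1 to 4, and 1550, 1410, 1050, 1100, 1190 and 641 in LPS libraries 1 to 6, and the actin-binding Coro1a was the most abundant of them at 47.3 ± 17.9 FPKM in saline and 447 ± 134 in LPS.

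In some marker sums 2 saline libraries stood apart from the others of their group. Saline library 1 had a summed level of the 8 neutrophil markers of 1400 FPKM against 75.6, 312 and 81.2 in saline libraries 2 to 4. Its lymphatic marker sum, nearly all from Lyve1, was 1270 FPKM against 277, 464 and 262. Saline library 3 had a B cell marker sum of 23.6 FPKM against 128, 159 and 131 in saline libraries 1, 2 and 4. Receptor and list calls that changed without either library are also given without it, a setting that for the lists was chosen after seeing the data. Saline library 4 differed in another way, with 29713 genes that had a read against 20258 to 23292 in the other saline libraries. Without saline library 4 the same 5 receptors were called higher in LPS as with it.

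After 10 mg/kg LPS, 5 of the 9 receptors were called higher and 0 lower: Ccr1, Ccr2, Cxcr2, Cx3cr1 and Ackr1. Over all genes tested, 11.9% were called higher and 6.79% lower (1768 and 1011 genes), a split that depended on the scaling, at 1366 and 1326 genes with quantile normalization, 1378 and 1453 on total reads, 1936 and 2529 with limma-voom, and 4231 and 217 when scaled on the endothelial markers. In 3 of the 9, Ccr1, Ccr2 and Cx3cr1, no LPS library overlapped any saline library, beside 39.4% of all tested genes. The receptors that rose most were those best known from neutrophils and monocytes, whereas Cxcr4, Ackr2 and Ackr3, the most abundant receptors in saline, were not called. Receptors called higher numbered 6 without saline library 1, when Ackr3 also passed, and 4 without saline library 2 or 3, when Ackr1 did not. Without saline library 3, Ccr7 was called lower.

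**Figure D1:**
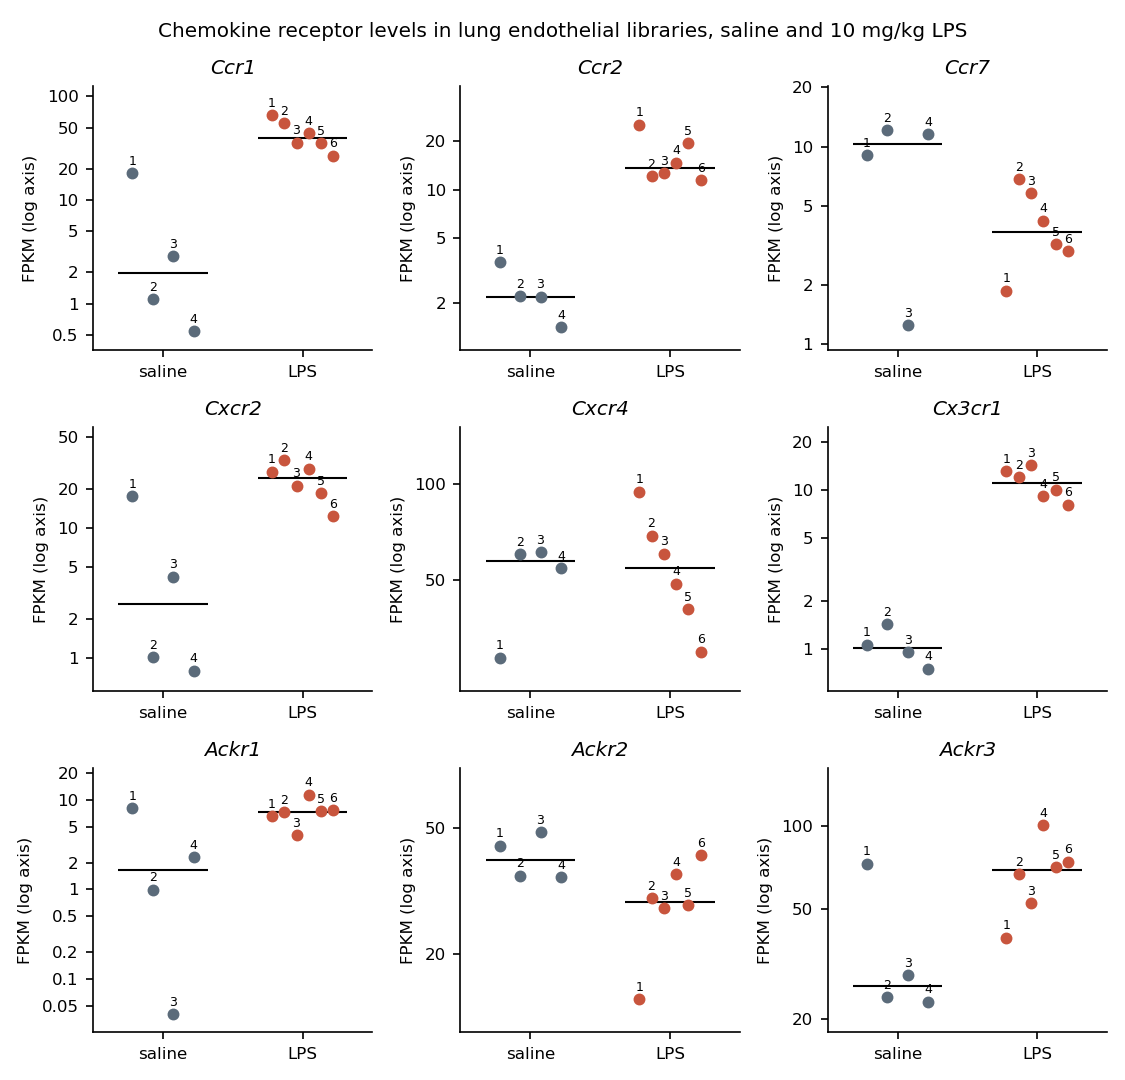
FPKM of each receptor on a log axis in 4 saline and 6 LPS libraries, with each point numbered by library and a line at the group median. Ccr1, Ccr2 and Cx3cr1 are separated between groups, saline library 1 lies with the LPS libraries for Cxcr2, Ackr1 and Ackr3, and Cxcr4 and Ackr2 overlap widely.

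Among CC receptors, Ccr1 binds Ccl3, Ccl5, Ccl6 and Ccl9 and directs neutrophils and monocytes. Ccr1 was at 18.1, 1.10, 2.87 and 0.538 FPKM in saline libraries 1 to 4, and ranged from 26.7 to 66.1 FPKM with a median of 39.9 in LPS. Saline library 1 was the only control near the LPS libraries, and the groups did not overlap. Ccr1 rose by 3.45 ± 0.58 on the log2 scale (limma adjusted p = 0.000597), which was 7.74-fold by the means of 5.66 ± 8.38 and 43.8 ± 14.5 FPKM. Without saline library 1 the rise was 4.21 (limma adjusted p = 6.98e-06).

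Ccr2, the receptor for Ccl2, Ccl7 and Ccl12 that brings monocytes out of the bone marrow, was lower and more even. It was at 3.56, 2.19, 2.18 and 1.41 FPKM in saline, and at 11.4 to 25.2 FPKM with a median of 13.7 in LPS. The groups were separate, with LPS library 1 the highest. Its rise was 2.32 ± 0.23 on the log2 scale (limma adjusted p = 2.13e-05), 6.80-fold by the means.

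Ccr7 binds Ccl19 and Ccl21 and guides naive lymphocytes and mature dendritic cells to lymph nodes. It was the exception among CC receptors, at 9.10, 12.1, 1.25 and 11.6 FPKM in saline and 1.87 to 6.86 with a median of 3.72 in LPS. Saline library 3, the library with few B cell transcripts, lay below all LPS libraries, while the other saline libraries lay above all of them. That library was also the lowest of its group in other marker sums. T and NK cell markers summed to 5.77 FPKM against 18.9, 10.8 and 10.3, and leukocyte markers to 76.5 against 227, 156 and 138. Across all libraries Ccr7 differed by -0.68 ± 0.47 on the log2 scale (limma adjusted p = 0.240). Without saline library 3 it was -1.28 (limma adjusted p = 0.00467), past the calling limits.

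The B cell markers moved alongside Ccr7. Of 4 tested, 3 fell in LPS (Cd79a, Pax5 and Ms4a1) with a median log2 fold change of -1.23 over the list. Without saline library 3 all 4 fell (median -1.82), whereas without saline library 1 none was called (median -1.14, limma adjusted p of 0.0581 or more). Their summed level in LPS was 27.4, 52.0, 58.6, 41.6, 21.3 and 19.7 FPKM in libraries 1 to 6, and Cd79a was the most abundant at 54.6 ± 28.8 FPKM in saline and 16.7 ± 9.11 in LPS. None of the 4 was at 0 in any saline or LPS library. How much of the Ccr7 signal came from B cells or from other leukocytes was not tested.

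Cxcr2, the receptor through which neutrophils respond to Cxcl1, Cxcl2, Cxcl3 and Cxcl5, was at 17.6, 1.02, 4.23 and 0.800 FPKM in saline and 12.4 to 33.1 with a median of 24.1 in LPS. Saline library 1 reached into the LPS range and the groups overlapped through that library alone. Cxcr2 rose by 2.43 ± 0.57 on the log2 scale (limma adjusted p = 0.00419) and 3.13 without saline library 1 (limma adjusted p = 8.92e-05).

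Neutrophil markers followed the same libraries as Ccr1 and Cxcr2. Of 8 tested, 5 rose in LPS (S100a8, S100a9, Csf3r, Mmp8 and Ly6g) with a list median of 1.97. When saline library 1 was left out, 7 of the 8 rose with a median of 2.71, Retnlg and Ngp among them. The sum over the list was 2710, 6630, 1590, 3420, 2470 and 1280 FPKM in LPS libraries 1 to 6. S100a9, a calcium-binding protein of neutrophil granules and cytosol, was the most abundant at 259 ± 365 FPKM in saline and 1860 ± 1300 in LPS, and Ly6g was at 0 in the lowest saline library. Monocyte and macrophage markers rose too, 7 of 8 tested, with a list median of 3.99. Their sums were 132, 84.5, 139 and 71.9 FPKM in saline and 1490, 1110, 929, 1060, 1110 and 669 in LPS, and Chil3 was the most abundant at 81.0 ± 28.2 and 548 ± 149 FPKM, while Marco was at 0 in the lowest saline library.

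Cx3cr1, the receptor for the membrane-bound chemokine Cx3cl1 on patrolling monocytes and some macrophages and lymphocytes, was the lowest receptor in saline. It was at 1.07, 1.44, 0.957 and 0.756 FPKM there and at 8.03 to 14.2 with a median of 11 in LPS. Both groups were tight and far apart, and no library stood out. Cx3cr1 rose by 2.54 ± 0.16 on the log2 scale (limma adjusted p = 1.23e-06), and by the means of all libraries by 10.5-fold, the largest ratio of the 9 receptors. That rank depends on saline library 1, which raised the saline mean of Ccr1 with 18.1 FPKM. Ccr1 rose more on the log2 scale (3.45), with a pseudocount of 0.1 (4.05 against 3.28) and with limma-voom (4.17 against 3.22). Because FPKM + 1 was used, fold changes of receptors as low as Cx3cr1 in saline are understated on the log2 scale.

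Cxcr4 is the signalling receptor for Cxcl12 and is used by neutrophils, lymphocytes and endothelial tip cells. It was the highest receptor in saline, at 28.6, 60.4, 61.0 and 54.5 FPKM, and ranged from 29.9 to 94.5 with a median of 54.6 in LPS. The LPS libraries spread around the saline libraries on both sides, and saline library 1 was the lowest of all 10. On the log2 scale LPS minus saline was 0.13 ± 0.31 (limma adjusted p = 0.751). Its 95% confidence interval was -0.56 to 0.81, so a change within those limits was not excluded. The sign of the difference changed with the scaling and with the libraries included. It went from -0.40 with quantile normalization to 0.81 when scaled to the endothelial markers (limma adjusted p = 0.127).

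Of the atypical receptors, Ackr1, the Duffy antigen that carries chemokines across venular endothelium, was called higher but rested on few libraries. It was at 8.12, 0.997, 0.0399 and 2.31 FPKM in saline, where saline library 3 had 1 read, and at 4.06 to 11.5 with a median of 7.45 in LPS. Saline library 1 lay above all but 1 of the LPS libraries, so the groups overlapped. Its rise was 1.54 ± 0.48 on the log2 scale (limma adjusted p = 0.0194, two-sided exact permutation p = 0.0571). With a pseudocount of 0.1 in place of 1 the rise was 2.46 (limma adjusted p = 0.0321), and with limma-voom 2.75 (adjusted p = 0.0174). It was 1.38 without saline library 2 (limma adjusted p = 0.0585) and 1.06 without saline library 3 (limma adjusted p = 0.0550), where the call was lost, and 2.11 without saline library 1 (limma adjusted p = 0.000656).

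Venous markers did not move together with Ackr1. Of 6 tested, Bst1 and the adhesion molecule Selp rose while Slc6a2 and Vwf fell, and the list median was -0.06. Vwf was at -0.85 ± 0.32 without saline library 1 and then not called. Bst1 went from 6.94 ± 3.5 to 57.1 ± 14.1 FPKM and Vwf, the most abundant, from 81.2 ± 26.7 to 39.8 ± 14.5. The list summed to 213, 137, 84.9 and 130 FPKM in saline and to 120, 137, 146, 177, 131 and 148 in LPS, with no marker at 0 in any of these libraries.

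Ackr2 takes up and degrades inflammatory CC chemokines. It was at 44.0, 35.4, 48.6 and 34.9 FPKM in saline and 14.4 to 41.0 with a median of 29.3 in LPS. All saline libraries lay at the upper end and LPS library 1 was far below the rest, but 2 LPS libraries reached the saline range. On the log2 scale the difference was -0.50 ± 0.24, with a 95% confidence interval of -1.03 to 0.04 (limma adjusted p = 0.104). It depended on the scaling, at -0.92 with quantile normalization (limma adjusted p = 0.00755), -0.69 on total reads (limma adjusted p = 0.0277) and -0.68 with limma-voom (adjusted p = 0.0319). When libraries were scaled to the endothelial markers instead, it was 0.18 (limma adjusted p = 0.394).

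Lymphatic endothelial markers gave no matching pattern. Of 7 listed, 4 were tested, and 1 fell, Flt4, from 24.1 ± 5.40 to 9.74 ± 2.55 FPKM, with a list median of -0.08. Pdpn was also called without saline library 1, at 1.07 ± 0.22 (limma adjusted p = 0.00225). Prox1, the defining factor of lymphatic endothelium, was at 0.209 ± 0.0678 FPKM in saline and 0.0589 ± 0.0370 in LPS and was below the filter, whereas Lyve1, the most abundant, was at 538 ± 470 and 549 ± 178 FPKM. Without saline library 1, Lyve1 was at 0.82 ± 0.32 on the log2 scale (limma adjusted p = 0.0489), within the fold limit. The list summed to 332, 420, 500, 814, 662 and 677 FPKM in LPS libraries 1 to 6.

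Ackr3 binds Cxcl12 and Cxcl11 and clears Cxcl12 from the surroundings of the cell. It was at 73.2, 23.9, 28.8 and 23.0 FPKM in saline and 39.4 to 101 with a median of 69.2 in LPS. Saline libraries 2 to 4 lay below all LPS libraries and saline library 1 lay among them. Ackr3 differed by 0.96 ± 0.33 on the log2 scale (limma adjusted p = 0.0308, two-sided exact permutation p = 0.0571), under the fold limit by a small margin. Without saline library 1 it was 1.33 (limma adjusted p = 0.00137), and it also passed without LPS library 1 (1.10) or LPS library 3 (1.02) and when scaled to the endothelial markers (1.64). Its limma adjusted p lay above 0.05 without saline library 2 (0.094), 3 (0.0729) or 4 (0.097), and without LPS library 2, 4, 5 or 6 (0.0514 to 0.0621). The same held with quantile normalization (0.53, limma adjusted p = 0.152), limma-voom (adjusted p = 0.0554), no filter on low values (limma adjusted p = 0.0776) and the replicate block (limma adjusted p = 0.166).

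**Figure D2:**
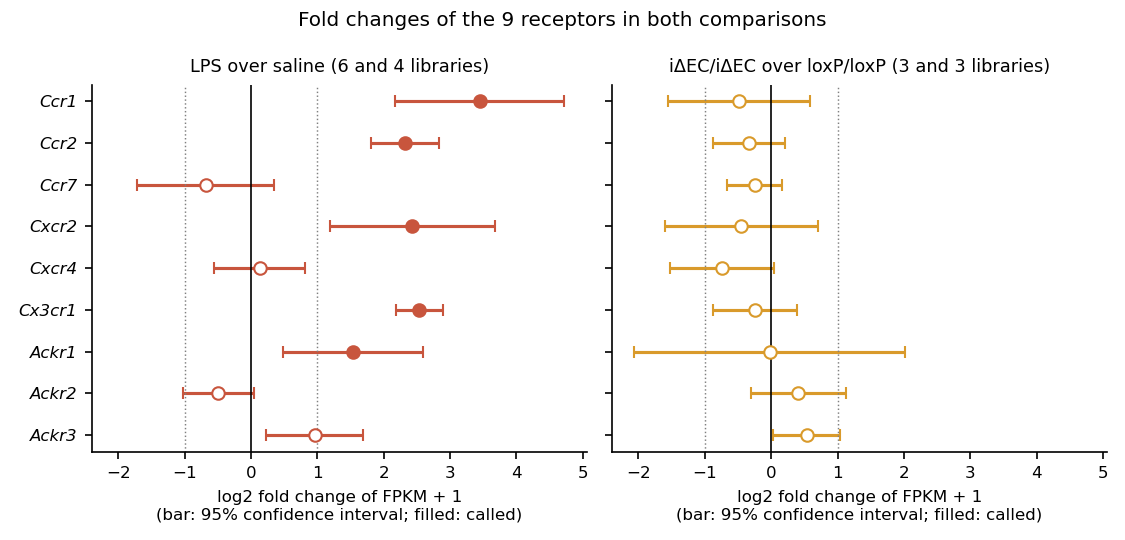
Log2 fold change of FPKM + 1 for each receptor with its 95% confidence interval from limma, LPS over saline on the left and Fgfr1 iΔEC/iΔEC over Fgfr1 loxP/loxP on the right, with filled points for called genes and dotted lines at the fold limits. Ccr1, Ccr2, Cxcr2, Cx3cr1 and Ackr1 are filled on the left, and no point is filled on the right.

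The order of the receptors by level changed between groups. In saline Cxcr4 (51.1 ± 15.3 FPKM), Ackr2 (40.7 ± 6.69) and Ackr3 (37.2 ± 24.1) led and overlapped, and each library of Ackr3 lay above every library of Ccr7 (8.52 ± 5.02), the next in order. Below that gap Cxcr2, Ccr1, Ackr1, Ccr2 and Cx3cr1 followed, all overlapping their neighbours. In LPS the order was Ackr3 (67.6 ± 20.9), Cxcr4 (57.2 ± 22.9), Ccr1 (43.8 ± 14.5), Ackr2 (29.6 ± 8.99), Cxcr2 (23.5 ± 7.54), Ccr2 (15.9 ± 5.40), Cx3cr1 (11.1 ± 2.43), Ackr1 (7.48 ± 2.40) and Ccr7 (4.16 ± 1.88), and no neighbours were separate. Cxcr4 nevertheless exceeded Ccr1 within each of the 6 LPS libraries.

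Each receptor was next set against the leukocyte content of its own library, as its log2(FPKM + 1) minus the mean of the 6 leukocyte markers on that scale. In bulk libraries, fewer cells of a type and less RNA per cell cannot be told apart. The marker mean itself went from 4.40 in saline to 7.17 in LPS, a rise of 2.78 with no overlap, so a negative value on this scale says only that a receptor rose by less than the markers, did not change or fell. For LPS minus saline, Ccr1 was at 0.67 (exact permutation p = 0.238), Ccr2 at -0.46 (exact permutation p = 0.143), Cxcr2 at -0.35 (exact permutation p = 0.552) and Cx3cr1 at -0.24 (exact permutation p = 0.429). The tests were two-sided and unadjusted over the 9 receptors, and such p-values do not show that the levels were alike. Without saline library 1, Ccr1 was at 1.2 (exact permutation p = 0.0952) and Cxcr2 at 0.12 (exact permutation p = 0.929). With Ptprc alone as the reference, Ccr1 was at 1.26 (exact permutation p = 0.124), and Ccr2, Cxcr2 and Cx3cr1 changed sign.

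Ccr7, Cxcr4, Ackr2 and Ackr3, the receptors not called higher, did not keep pace with the markers. The differences were -3.46 for Ccr7, -2.65 for Cxcr4, -3.28 for Ackr2 and -1.82 for Ackr3, each with the 2.78 of the markers subtracted. Against Ptprc alone Ackr3 was at -1.23 (exact permutation p = 0.0476), with overlap between groups. Cxcr4 went from 1.25 above the leukocyte mean in saline to -1.41 in LPS, and Ackr3 from 0.69 to -1.13. Ackr1 was at -1.24 (exact permutation p = 0.0571).

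**Figure D3:**
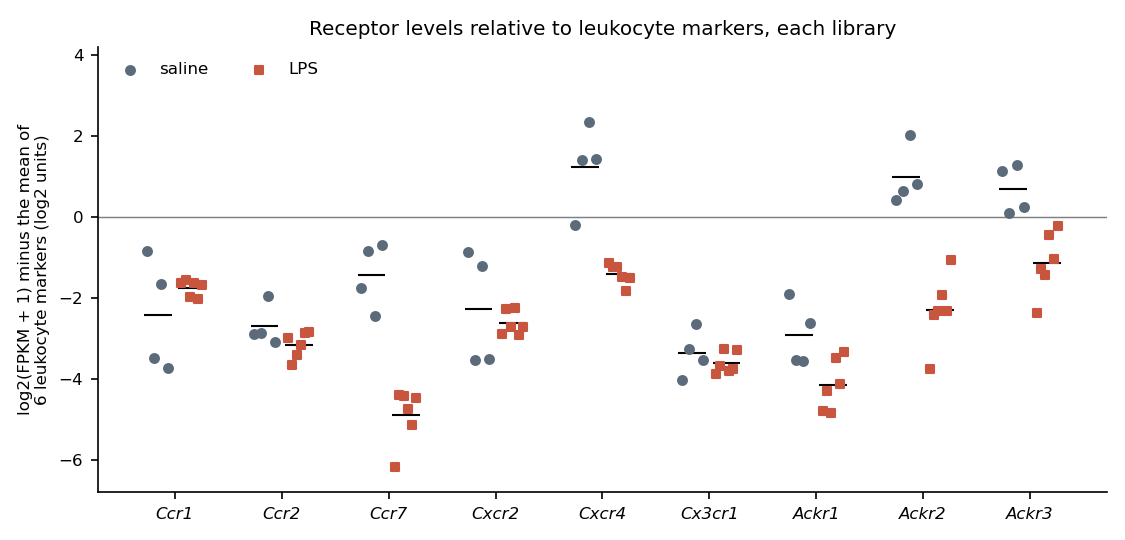
Log2(FPKM + 1) of each receptor minus the mean log2(FPKM + 1) of 6 leukocyte markers, 1 point per library, with a line at the group mean. LPS points lie within or beside the saline range for Ccr1, Ccr2, Cxcr2 and Cx3cr1, and below every saline point for Ccr7, Cxcr4, Ackr2 and Ackr3, beside a rise of 2.78 in the marker mean itself.

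Likeness between genes was measured by Pearson's r of deviations from the group mean over all 16 libraries, across 12328 genes with at least 1 FPKM in both tables, and is a description because libraries share depth and cell makeup. Ccr1 was most like Trem1 (r = 0.984, Spearman's rho = 0.968), an amplifying receptor of myeloid cells, then Cxcr2 (0.975), Clec4d, Fcgr3 and Mcemp1. Cxcr2 was most like Ccr1, then Rac3 (0.968), the collagenase Mmp8 (0.965), the G-CSF receptor Csf3r (0.964) and Mcemp1. Ccr2 was most like Pid1 (0.937) and Cebpa (0.923), a myeloid transcription factor. For each of these the relation held without the 2 farthest libraries, at 0.964 for Ccr1 with Trem1, 0.928 for Cxcr2 with Rac3 and 0.890 for Ccr2 with Pid1.

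The other receptors had neighbours of other kinds. Ccr7 was most like Mir5107 (0.919), the B cell receptor component Cd79b (0.914), the immunoglobulin light chain gene Iglc3 (0.906), Ptprcap and the pre-B cell gene Vpreb3. Ackr3 was most like Sdcbp2 (0.978), Cdc42ep4 (0.970) and the matrix protein gene Tinagl1 (0.967). Ackr2 was most like Tspan7 (0.957), the prostaglandin transporter Slco2a1 (0.946) and the phospholipase Plcg1 (0.946). Ackr1 was most like Reps1 (0.935), Cxcr4 like Plgrkt (0.921), and Cx3cr1, whose best match was weakest, like the sphingosine receptor S1pr5 (0.851).

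Within groups, Cxcr4 and Ackr3 deviated in opposite directions (r = -0.71, rho = -0.67 over 16 libraries), while Ackr1 and Ackr3 deviated together (r = 0.68, rho = 0.69). The ratio of Ackr3 to Cxcr4, a pattern picked after its values were seen and therefore not tested, was 2.56, 0.395, 0.473 and 0.422 in saline libraries 1 to 4. In LPS libraries 1 to 6 it was 0.417, 0.976, 0.868, 2.07, 1.75 and 2.49. In the second experiment it was 2.74, 1.73 and 0.846 in Fgfr1 loxP/loxP and 5.78, 2.88 and 3.57 in Fgfr1 iΔEC/iΔEC. Saline library 1 thus had a ratio unlike that of the other saline libraries. The tables were normalized separately, so levels across experiments are side by side only.

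**Figure D4:**
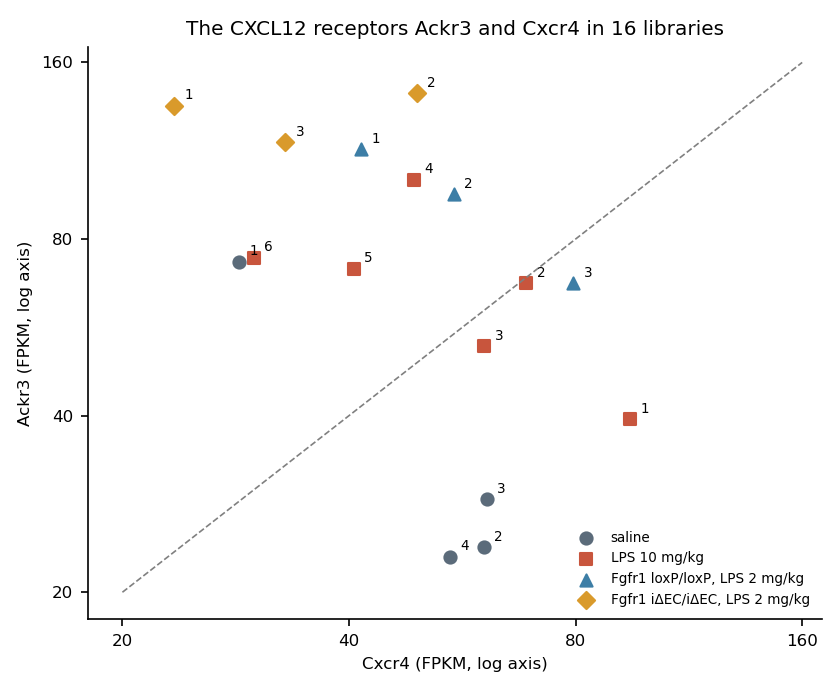
Ackr3 against Cxcr4 in FPKM on log axes, 1 numbered point per library and a dashed line of equal levels. Saline libraries 2 to 4 lie far below the line, saline library 1 lies above it with 3 of the LPS libraries, and all 3 Fgfr1 iΔEC/iΔEC libraries lie far above it.

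Because Ccr1 and Cxcr2 moved together through the libraries, the bases upstream of their start sites are shown, with those of Ackr2 for contrast as a receptor that did not rise. Each line is the 250 bases before the RefSeq start, 5′ to 3′ on the gene's strand (GRCm38.p6), and capitals mark matches on either strand to the NF-kB consensus or to the core GAGGAA of the myeloid factor PU.1.
Ccr1: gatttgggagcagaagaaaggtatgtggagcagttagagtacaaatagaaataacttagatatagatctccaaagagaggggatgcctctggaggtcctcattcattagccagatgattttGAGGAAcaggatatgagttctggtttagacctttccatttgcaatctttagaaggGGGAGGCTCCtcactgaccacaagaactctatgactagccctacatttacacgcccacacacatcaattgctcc
Cxcr2: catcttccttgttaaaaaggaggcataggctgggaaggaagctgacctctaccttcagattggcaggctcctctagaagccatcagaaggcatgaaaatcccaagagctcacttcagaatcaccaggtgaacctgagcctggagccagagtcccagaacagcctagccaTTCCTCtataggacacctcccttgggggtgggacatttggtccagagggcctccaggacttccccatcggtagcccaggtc
Ackr2: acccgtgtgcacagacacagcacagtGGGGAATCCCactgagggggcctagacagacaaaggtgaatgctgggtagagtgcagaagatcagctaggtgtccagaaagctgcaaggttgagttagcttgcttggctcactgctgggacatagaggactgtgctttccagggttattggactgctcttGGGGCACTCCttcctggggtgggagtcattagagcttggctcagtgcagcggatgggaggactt
They lie at chr9:123968693-123968942 (minus strand), chr1:74153744-74153993 (plus strand) and chr9:121898105-121898354 (plus strand). Promoters from 250 bases before to 50 after the start were matched for 8 of the 9 receptors, not Ccr7. The NF-kB consensus matched in Ccr1 (at 1 position) and Ackr2 (at 2), and in 8.46% of 32851 RefSeq promoters of the same length. GAGGAA matched in Ccr1 (1 position) and Cxcr2 (2 positions, of which the later lies after the start), and in 28.3% of all promoters. The hypoxia core ACGTG was in none of the 8 and in 19.6% of all. Matches to different motifs did not overlap, and a match is only a string of letters.

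Most ligands tested rose strongly in the same libraries. Of 21 listed, 19 had a single entry in the table, 16 were tested, 12 rose and 2 fell, with a median log2 fold change of 3.53. Ccl22 also rose without saline library 1, which made 13. The Ccr7 ligands Ccl19 and Ccl21a each had more than 1 entry and were not analysed here. On the log2 scale of FPKM + 1, the largest rises were in the Ccr1 ligand Ccl3 (6.96 ± 0.53, limma adjusted p = 3.2e-06), the Cxcr2 ligands Cxcl2 (6.08 ± 1.07) and Cxcl3 (4.86 ± 0.46), and the Ccr2 ligands Ccl2 (5.55 ± 0.20), Ccl12 (4.65 ± 0.23) and Ccl7 (4.63 ± 0.25). Ccl3 was at 4.08 ± 3.82 FPKM in saline and 649 ± 442 in LPS, the highest ligand in LPS. That scale compresses ligands near 0 in saline, and by the ratio of means Ccl12, Ccl2 and Ccl7 (0.021, 0.108 and 0.0634 FPKM in saline) came before Ccl3. Cxcl2 was at 7.49 ± 0.58 without saline library 1, and Ccl3 at 7.41 ± 0.51.

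The 2 ligands that fell were those for Cxcr4 with Ackr3, and for Cx3cr1. Cxcl12 went from 76.9 ± 18.9 to 29.7 ± 13.9 FPKM (log2 fold change -1.43 ± 0.32, limma adjusted p = 0.00317) and was the highest ligand in saline. Cx3cl1 went from 29.9 ± 8.13 to 11.6 ± 3.59 (-1.31 ± 0.27, limma adjusted p = 0.00207). In both, every LPS library lay below every saline library. Cx3cr1 thus rose while its ligand fell, and Cxcr4 had no call while its ligand fell.

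Of 15 other chemokine receptors listed, 6 passed the filter, 1 rose and 1 fell, with a median log2 fold change of -0.60. Ccrl2, a non-signalling receptor that presents chemerin, was the most abundant and rose from 44.9 ± 8.51 to 137 ± 90.2 FPKM (log2 fold change 1.36 ± 0.41, limma adjusted p = 0.0167). Ackr4, the scavenger of Ccr7 ligands, fell from 5.80 ± 3.38 to 0.740 ± 0.302 (-1.74 ± 0.39, limma adjusted p = 0.00351), with overlap between groups.

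Most receptors for other chemoattractants rose, as did some of the genes that act beneath the receptors. Of 10 other chemoattractant receptors, 8 were called higher and 0 lower, led by the formyl peptide receptors Fpr2 (5.72 ± 0.30) and Fpr1 (5.63 ± 0.25), the platelet-activating factor receptor Ptafr (4.82 ± 0.31), the leukotriene receptor Ltb4r1 (4.39 ± 0.37), the complement receptor C5ar1 (4.18 ± 0.49) and Gpr35 (3.19 ± 0.28). S1pr1, a sphingosine receptor of endothelium, was the highest in saline at 328 ± 176 FPKM and 371 ± 106 in LPS (limma adjusted p = 0.543). Of 24 genes of receptor coupling, desensitisation and migration, 11 rose, 13 were not called and 0 fell past the limits, with a median of 0.90. Without saline library 1, 13 rose, and without saline library 3, 10 rose. The arrestin Arrb1 (-0.85 ± 0.14), Plcb3 (-0.70 ± 0.11) and Gng2 (-0.65 ± 0.11) were lower in every LPS library than in every saline library, within the fold limit. Those that rose included the phosphoinositide 3-kinase subunits Pik3r5 (3.37 ± 0.31) and Pik3cg (1.96 ± 0.20), the GTPase Rac2 (2.74 ± 0.31), the receptor kinase Grk3 (2.09 ± 0.33), the tyrosine kinase Ptk2b (1.91 ± 0.28) and Rgs1 (1.85 ± 0.44). Gnai2, an inhibitory G protein subunit, was the most abundant at 250 ± 51.0 FPKM in saline and 390 ± 71.3 in LPS.

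The second experiment asked whether loss of endothelial Fgfr1 altered the receptors in injured lung. Fgfr1 itself was at 2.90, 2.91 and 2.60 FPKM in Fgfr1 loxP/loxP libraries 1 to 3 and at 0.682, 1.41 and 1.15 in Fgfr1 iΔEC/iΔEC. The groups did not overlap, with a log2 fold change of -0.88 ± 0.16, a limma adjusted p of 0.962 and an exact permutation p of 0.1, the smallest that 3 against 3 libraries allow. No gene passed the calling limits (0%), with limma unadjusted p under 0.05 in 661 of 14945 genes. No receptor was therefore called.

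Same-numbered libraries of the 2 genotypes deviated alike to a small degree, so limma was also run with the library number as a block. No label states such a pairing, which was read from these same values. Pairs named below are pairs of library numbers, and the block p-values rest on that assumption. Unadjusted p was under 0.05 for 1 of the 9 receptors without the block (Ackr3), beside 4.42% of all genes, and for 5 with it (Ackr3, Ackr2, Cxcr4, Ccr2 and Cxcr2), beside 7.72%. Ackr3 was the only receptor of the 9 whose genotype groups did not overlap, beside 10.1% of all genes.

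Ackr3 was at 114, 95.5 and 67.2 FPKM in Fgfr1 loxP/loxP and 135, 142 and 117 in Fgfr1 iΔEC/iΔEC libraries 1 to 3. All Fgfr1 iΔEC/iΔEC libraries lay above all controls, and the value was higher within each numbered pair. On the log2 scale Ackr3 differed by 0.54 ± 0.21, with a 95% confidence interval of 0.03 to 1.04 (limma p = 0.0409, adjusted p = 0.962, exact permutation p = 0.1), and with the block the limma p was 0.0157 and the adjusted p was 0.586. Ackr2 was also higher in each pair, from 40.2, 22.2 and 42.3 to 56.0, 33.1 and 48.8 FPKM, but the groups overlapped. Its log2 difference was 0.41 ± 0.30 (limma adjusted p = 0.962), with a block limma p of 0.0162 and an adjusted p of 0.589. It was 0.12 without Fgfr1 loxP/loxP library 2, and Ackr3 was 0.33 without Fgfr1 loxP/loxP library 3.

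Cxcr4 showed the opposite direction. It was at 41.5, 55.1 and 79.4 FPKM in Fgfr1 loxP/loxP and 23.4, 49.2 and 32.9 in Fgfr1 iΔEC/iΔEC, lower within each pair while the groups overlapped. Its log2 difference was -0.74 ± 0.33, with a 95% confidence interval of -1.52 to 0.04 (limma adjusted p = 0.962), with a block limma p of 0.0235 and an adjusted p of 0.599. Without Fgfr1 iΔEC/iΔEC library 1 the difference was -0.48, and without Fgfr1 iΔEC/iΔEC library 2 it was -1.0. In the Fgfr1 iΔEC/iΔEC group Ackr3 stood clear above Ackr2, the next in order, whereas in controls it overlapped Cxcr4.

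The myeloid receptors Ccr2, Cxcr2 and Ccr1 had lower means in Fgfr1 iΔEC/iΔEC without passing the limits. Ccr2 was at 6.54, 10.1 and 8.24 FPKM in controls and 4.88, 8.73 and 5.87 in Fgfr1 iΔEC/iΔEC, lower in each pair (log2 fold change -0.33 ± 0.23, limma adjusted p = 0.962). Cxcr2 was at 11.8, 21.8 and 36.4 against 8.16, 20.9 and 20.4 (-0.45 ± 0.48, limma adjusted p = 0.963). Ccr1 was at 17.4, 26.4 and 44.0 against 10.5, 29.2 and 23.2 (-0.48 ± 0.45, limma adjusted p = 0.962), with pair 2 in the other direction. For each of these 3 receptors the genotype ranges overlapped, and without Fgfr1 iΔEC/iΔEC library 1 the differences were -0.17, -0.03 and -0.07 for Ccr2, Cxcr2 and Ccr1. Without Fgfr1 loxP/loxP library 3, Cxcr2 was at -0.07 and Ccr1 at -0.14, and Ccr2 was at -0.19 without Fgfr1 loxP/loxP library 2.

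The genotype ranges of the remaining receptors overlapped too. Cx3cr1 was at 2.64, 5.20 and 4.96 FPKM in controls and 3.18, 4.61 and 2.45 in Fgfr1 iΔEC/iΔEC (log2 fold change -0.24 ± 0.26, limma adjusted p = 0.963). Ccr7 was at 9.52, 9.85 and 12.8 against 7.21, 10.9 and 8.47 (-0.25 ± 0.18, limma adjusted p = 0.962). Over left-out libraries Cx3cr1 ranged from -0.49 to -0.08 and Ccr7 from -0.4 to -0.13. Ackr1 was at 33.0, 35.8 and 3.38 against 11.8, 29.9 and 12.3, so that control library 3 lay far below the rest, with a log2 fold change of -0.02 and a 95% confidence interval of -2.06 to 2.02 (limma adjusted p = 0.999). A change of Ackr1 within that interval was not excluded.

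**Figure D5:**
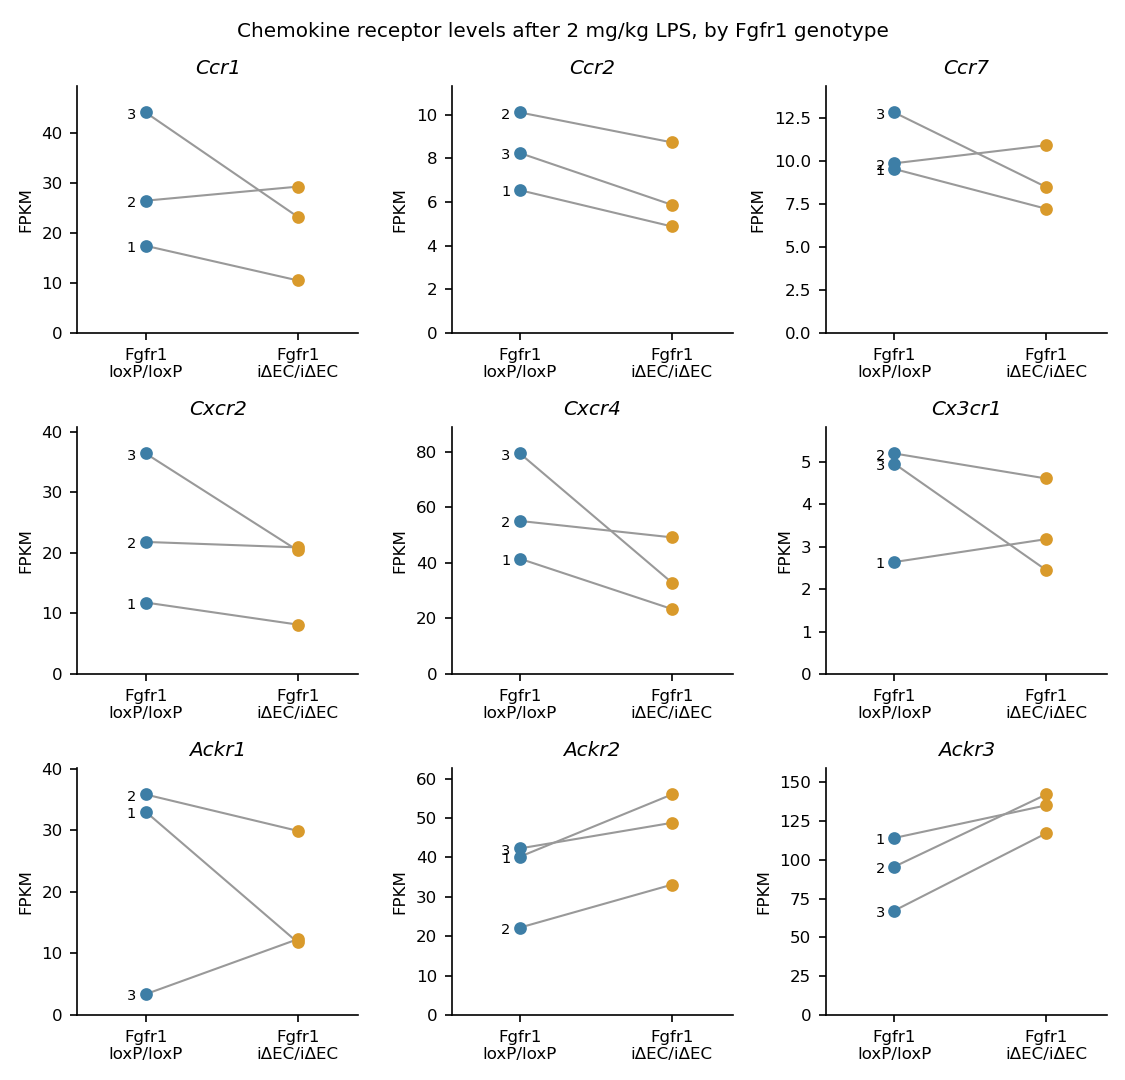
FPKM of each receptor after 2 mg/kg LPS in 3 Fgfr1 loxP/loxP and 3 Fgfr1 iΔEC/iΔEC libraries, with lines joining libraries of the same number and axes from 0. Ackr3 and Ackr2 rise along all 3 lines, Cxcr4, Ccr2 and Cxcr2 fall along all 3, and only Ackr3 has separate groups.

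Markers of other cell types in the second experiment moved with no call in any list. The leukocyte markers summed to 458, 605 and 543 FPKM in controls and 308, 675 and 409 in Fgfr1 iΔEC/iΔEC, with a median log2 fold change of -0.25, led by Coro1a at 176 and 158 FPKM. The neutrophil markers summed to 1160, 2540 and 2540 against 743, 2440 and 1510, with a median of -0.41, led by S100a9. The monocyte and macrophage markers summed to 385, 538 and 774 against 263, 895 and 660, with a median of -0.02. Venous and lymphatic markers had medians of 0.3 and 0.28. The endothelial markers summed to 3090, 2470 and 2580 against 3880, 2750 and 3550, with a median of 0.23 beside 0.01 over all genes, led by Cldn5. In each pair the endothelial sum was higher in Fgfr1 iΔEC/iΔEC, as Ackr3 and Ackr2 were. When libraries were scaled to the endothelial markers, the genotype difference of Ackr3 went from 0.54 to 0.30 ± 0.27 and that of Ackr2 from 0.41 to 0.17 ± 0.23 on the log2 scale. The other receptors lay further below 0 with that scaling, Cxcr4 at -0.97, Ccr1 at -0.7, Cxcr2 at -0.67 and Ccr2 at -0.53. Ccr7 was then at -0.47, Cx3cr1 at -0.43 and Ackr1 at -0.23. The part of endothelial content in these differences was not tested. Epithelial markers had the list median farthest from 0, at -0.87. They summed to 769, 1440 and 2590 FPKM in controls and 355, 937 and 723 in Fgfr1 iΔEC/iΔEC, lower in each pair, led by Sftpc, and Ager was apart in all libraries (log2 fold change -0.87 ± 0.26, limma adjusted p = 0.962). The B cell list had a median of -0.45 and summed to 72.1, 70.2 and 61.8 against 42.9, 86.4 and 35.9 FPKM.

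Among the pathway lists no gene was called. Of 9 other chemokine receptors tested, 3 lay lower in every Fgfr1 iΔEC/iΔEC library than in every control, Ccr6 (log2 fold change -0.78 ± 0.27), Cxcr5 (-0.66 ± 0.23) and Ccrl2 (-0.46 ± 0.16), each with a limma adjusted p of 0.962. The list median was -0.32. Of 19 ligands tested, the largest differences were Ccl3 (-0.70 ± 0.53) and Cxcl2 (-0.53 ± 0.46), with a list median of -0.16, while Cxcl12 was at 54.6 ± 21 FPKM in controls and 49.5 ± 19.8 in Fgfr1 iΔEC/iΔEC. S1pr1 was at 353 ± 66.7 and 540 ± 11.4 FPKM (0.63 ± 0.20, limma adjusted p = 0.962), and the coupling list had a median of -0.02.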

How the data were processed

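RNA of bead-selected mouse lung ECs was sequenced in 16 libraries. The authors aligned reads to GRCm38 (mm10) with HISAT2 2.0.5, counted them per gene with featureCounts 1.5.0-p3 and deposited FPKM values in a table for each experiment. Strandedness of the counting was not given in the sources used here. FPKM times gene length gave whole reads for 100% of values (tolerance 0.05), which gave depth per library and a scaling by median of ratios that moved no library by more than 0.18%. The library size within the FPKM was not the sum of the reads counted (22126775 against 18807007 in saline library 2), so scaling on total reads was a separate alternative. The authors named DESeq2 on counts. Here limma 3.58.1 (R 4.3.3, lmFit, eBayes with trend) was fitted to log2(FPKM + 1) of genes averaging 0.5 FPKM or more. Benjamini-Hochberg adjustment covered all of these genes, and the limma fit was also tested on simulated data. Calls needed an adjusted p of at most 0.05 and a change of 1 or more on the log2 scale in either direction. Exact permutation tests were two-sided (scipy 1.17.1). The deposited tables also hold gene annotation, and no column of the authors' own comparisons was used. The receptors, marker lists and pathway lists were chosen with earlier results of these data known, and 3 genes of those lists are not reported here and enter no count. Named genes were all 9 receptors, Fgfr1, Ptprc, Pecam1, up to 6 called genes of each list by fold change (or the 2 largest where none was called), the highest of each list, and the 5 genes most like each receptor. Genes named outside this rule were chosen after their values were seen. Library numbers were taken to pair the genotypes, since deviations of same-numbered libraries correlated at 0.248, 0.178 and 0.187. No label states a pairing, and that choice was made from the same values to which the block was then applied. Sequences came from RefSeq promoters (GRCm38.p6) and GENCODE M21 transcripts. Every pair of libraries within a group differed beyond counting noise in a chi-square comparison, so none was counted as a repeat of another, which does not show that they came from separate animals. Intervals cover limma's error between libraries only.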

Additional observations from a re-analysis of the deposited data

Results flagged for a closer look

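The first experiment gave 44 groups of values (each receptor and the mean of each marker list, in the 4 saline and in the 6 LPS libraries). In these, 4 values lay far from the rest by Dixon's criterion. About 2.2 would by chance, since chance marks about 1 in 20 groups. Ccr7 in saline library 3 was at 1.17 on the log2(FPKM + 1) scale, where the other saline libraries were at 3.34 to 3.71, and the mean of the B cell markers on the same scale was likewise far below in that library, at 2.27 against 4.34 to 4.73. Cxcr4 in saline library 1 was at 4.89 against 5.79 to 5.95 in the other saline libraries, in the library with the highest neutrophil and Lyve1 levels of its group. Ackr2 in LPS library 1 was at 3.94 against 4.86 to 5.39, in the library with the lowest Pecam1 (234 FPKM) and the highest Ptprc (52.7 FPKM) of the LPS group. The part of these markers in the receptor values was not tested.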

How the results depend on the processing

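The receptor calls in LPS held in most settings, with 4 to 6 receptors called higher. The number of genes called lower in LPS, 1011, was 1840 with a pseudocount of 0.1, 217 when scaled on the endothelial list, 2529 with limma-voom and 3529 with no fold limit, and the number called higher, 1768, was 4231 on the endothelial list and 4399 with no fold limit. Over all genes the median change in LPS, 0.013, was 0.55 (endothelial list), -0.146 (total reads), -0.143 (limma-voom) and -0.078 (quantile) under these scalings. Receptors called lower numbered 0 to 1 when each library was left out, the exception being Ccr7 without saline library 3. Cxcr4 in LPS changed sign, to -0.40 (quantile), -0.07 (total reads) and -0.03 (limma-voom), was 0.81 on the endothelial list (adjusted p = 0.127) and 0.43 with the replicate block, and ranged from -0.13 to 0.29 over left-out libraries, and Ackr2 was 0.18 on the endothelial list and -0.92 to -0.68 under the other scalings. Ackr1 in LPS lost its call with no filter on low values (adjusted p = 0.0546). For the genotype, Ackr1 changed sign to 0.04 (pseudocount 0.1) and 0.10 (limma-voom), and ranged from -1.02 to 0.51 over left-out libraries. Relative to Ptprc in place of the leukocyte list, Ccr1 was 1.26, Ccr2 0.14, Cxcr2 0.25, Cx3cr1 0.35 and Ackr3 -1.23, and over left-out libraries Ccr1 ranged from 0.23 to 1.2, Cxcr2 from -0.76 to 0.12, and Cx3cr1 from -0.46 to 0.00. The cause of these shifts was not tested.

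With the replicate number as a block, LPS gave 1925 genes higher and 1063 lower with the same 5 receptors higher, although same-numbered saline and LPS libraries did not deviate together (0.097, -0.162, -0.209 and -0.117), so those numbers are not read as pairs. For the genotype the block gave 1154 genes at an unadjusted p under 0.05 in place of 661, and changed no adjusted call (smallest adjusted p 0.306 with it and 0.742 without). In that comparison 0 genes were called in every setting run, with left-out libraries giving 403 to 1072 genes at an unadjusted p under 0.05. Few libraries per group and leukocyte RNA in both arms limit what the receptor differences can show, and Ackr1 in saline rests on as little as 1 read.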

Other observations

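Markers of other cell types moved unevenly in LPS. Of the arterial list 5 of 6 fell, including the Notch target Hey1 (116 ± 28.8 to 27.0 ± 9.15 FPKM, log2 fold change -2.09 ± 0.26) and the connexin Gja4 (132 ± 36.6 to 43.6 ± 16.6, -1.62 ± 0.27), with a list median of -1.22. Of the platelet list 3 of 4 rose, led by Pf4 (2.34 ± 0.29), and of the dendritic list 2 of 5 tested rose, Itgax (2.95 ± 0.26) and Fscn1 (1.34 ± 0.26), while Clec9a was at -1.0 ± 0.27 (33.6 ± 11.3 to 15.9 ± 4.06 FPKM, limma adjusted p = 0.00857), just within the fold limit. Cd209a, below the filter, was at 0.774 ± 0.155 FPKM in saline and 0.150 ± 0.106 in LPS, with every LPS library lower. Of the epithelial list 2 of 7 fell, including the surfactant gene Sftpc (1320 ± 550 to 280 ± 126 FPKM, -2.30 ± 0.43), and of the fibroblast and mural list 1 of 7 fell, Pdgfrb (-1.02 ± 0.26). No T and NK cell marker of 5 tested was called, and the median of that list was -0.22. These calls are by limma at an adjusted p of at most 0.05. Leaving out saline library 1, the arterial list had 3 that fell, the epithelial list 1 (Sftpc), the fibroblast and mural list 1 that rose (Acta2) in place of Pdgfrb, and the dendritic list 3 that rose and 1 that fell (Clec9a). Without saline library 3 the arterial list had 4 that fell, the epithelial list 1 (Sftpc) and the platelet list 1 that rose (Pf4).

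The ratio of Ccr1 to Cxcr2 in FPKM was 1.53 to 2.44 in the 6 LPS libraries and 0.672 to 1.08 in the 4 saline libraries, given as values only since the ratio was chosen after they were seen. The atypical receptors made up 61.6%, 43.5%, 51.7% and 46.4% of the summed FPKM of the 9 receptors in saline libraries 1 to 4 and 20.9% to 57.4% in LPS. In the second experiment their share was 67.7%, 54.5% and 37.8% in Fgfr1 loxP/loxP and 78.0%, 62.4% and 65.7% in Fgfr1 iΔEC/iΔEC libraries 1 to 3, higher in each numbered pair.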
